A study of Mus musculus with 16 samples.

Results

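Ribosome biogenesis factors are the proteins that make pre-ribosomal RNA and turn it into ribosomal subunits without being part of the finished ribosome. A fixed list of 46 of them, matched by gene symbol, was described in RNA sequencing of germinal centre B cells of mouse spleen; all 46 were among the 49492 genes listed in the count table and among the 15240 genes tested. The list was drawn up by function, with earlier results of these data known. It was divided here by textbook role into 4 RNA polymerase I subunits, 6 general nucleolar proteins, 4 proteins of box C/D small nucleolar ribonucleoproteins (snoRNPs), 2 of H/ACA snoRNPs, 12 small-subunit factors and 18 large-subunit factors.

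The libraries fall into 4 groups of 4 and were compared in pairs. The mutant centrocytes and mutant centroblasts came from Ezh2(Y641F)fl/wt;Cγ1-cre mice, which carry 1 conditional copy of a gain-of-function form of the histone methyltransferase EZH2. The control centrocytes and control centroblasts came from mice with Cγ1-cre alone. All mice were C57BL/6J, 3 months old, carried a single Cγ1-cre allele (cre+/-) and had received sheep red blood cells 8 days earlier. Cγ1-cre is expressed in activated B cells and recombines in most but not all germinal centre cells, so the mutant groups may hold unrecombined cells. B220+ FAS+ CD38- cells were sorted as CXCR4- CD86+ for centrocytes and as CXCR4+ CD86- for centroblasts, and all samples are labelled as 1 litter.

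Ribosome production starts in the nucleolus, where RNA polymerase I transcribes the precursor of the 18S, 5.8S and 28S ribosomal RNAs. Box C/D snoRNPs methylate this precursor, H/ACA snoRNPs convert uridines to pseudouridine, and large assembly complexes (the small-subunit processome and the pre-60S particles) fold and cut it. Many of these factors are textbook targets of the transcription factor MYC. In the germinal centre, centroblasts of the dark zone divide, and centrocytes of the light zone are selected for antigen binding, with brief MYC induction in the selected cells.

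The libraries held 35230563 to 44466911 counted reads. Levels are given as CPM, counts per 1000000 after TMM scaling, a factor that aligns libraries by their bulk of genes. The sort markers followed the labels: Cxcr4 was 2.5-fold lower in mutant centrocytes than in mutant centroblasts and 2.25-fold lower in control centrocytes than in control centroblasts, and Cd86 was 1.9-fold and 1.93-fold higher. Total Ezh2 mRNA does not tell the mutant allele from the normal one; it was at 199, 179, 205 and 174 CPM in mutant centrocytes, against 254, 247, 224 and 256 CPM in control centrocytes. In centroblasts it was at 239.6, 256, 209.8 and 183 CPM in mutants, against 335, 305, 281 and 236 CPM in controls, and both differences were called (adjusted p = 0.0395 in centrocytes and 0.0486 in centroblasts). Reads of 4 Y-linked transcripts marked libraries 1 and 2 of every group as male and libraries 3 and 4 as female. 4 libraries stood apart in several members: mutant centrocyte library 3, control centrocyte library 1 and control centroblast libraries 1 and 4, as described below. Mutant centroblast library 4 was about as low as control centroblast library 4 in Ncl (683 and 669 CPM), Nop58 (85.6 and 85.5 CPM), Dkc1 (69.4 and 64.8 CPM) and Ddx10 (31.9 and 30.0 CPM).

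Together the 46 members took 0.412% to 0.647% of all counted reads in a library. Their summed level was 5419, 5267, 5430 and 5501 CPM in mutant centrocytes and 6383, 5227, 5629 and 5405 CPM in control centrocytes. In mutant centroblasts it was 4955, 5015, 4638 and 4239 CPM, and in control centroblasts 4517, 4673, 4802 and 4157 CPM. Every centrocyte library was above every centroblast library, and the mutant and control ranges overlapped within each cell type. Nucleolin (Ncl), an abundant RNA-binding protein of the nucleolus, made up 21.0% of the sum, and the sum without it ranged from 4173 to 4388 CPM in mutant centrocytes and 4085 to 4934 CPM in control centrocytes, against 3556 to 3901 CPM in mutant centroblasts and 3481 to 3688 CPM in control centroblasts. In bulk samples, more cells of a type and more RNA per cell cannot be told apart.

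Levels differed widely between members. Per kilobase of coding sequence, Ncl had the highest mean level over the 16 libraries (503 CPM per kilobase), ahead of nucleophosmin (Npm1), a nucleolar histone chaperone (324), and Nip7, a pre-60S factor (185). The lowest were Utp20, a large scaffold of the small-subunit processome (9.87), and fibrillarin (Fbl), the methyltransferase of box C/D snoRNPs (10.1). This order depends on the length used, since reads of untranslated parts were counted too: per kilobase of the annotated transcript Npm1 (174 CPM) was above Ncl (130 CPM), Nip7 was at 32.9 CPM, and Wdr12, a pre-60S factor, was lowest at 4.08 CPM. Fbl counts are uncertain, since 73.0% of the 50-base stretches of its transcript also occur in other genes. The same holds to a smaller degree for Ddx18 (62.7%), Npm1 (40.9%), Nop56 (37.6%), Tsr1 (31.1%), Mrto4 (25.8%), Pes1 (24.1%) and Noc2l (19.4%). Tsr1 and Noc2l also overlap genes on the opposite strand, Srr and Samd11, and it is not stated whether counting used strand.

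**Figure D1:**
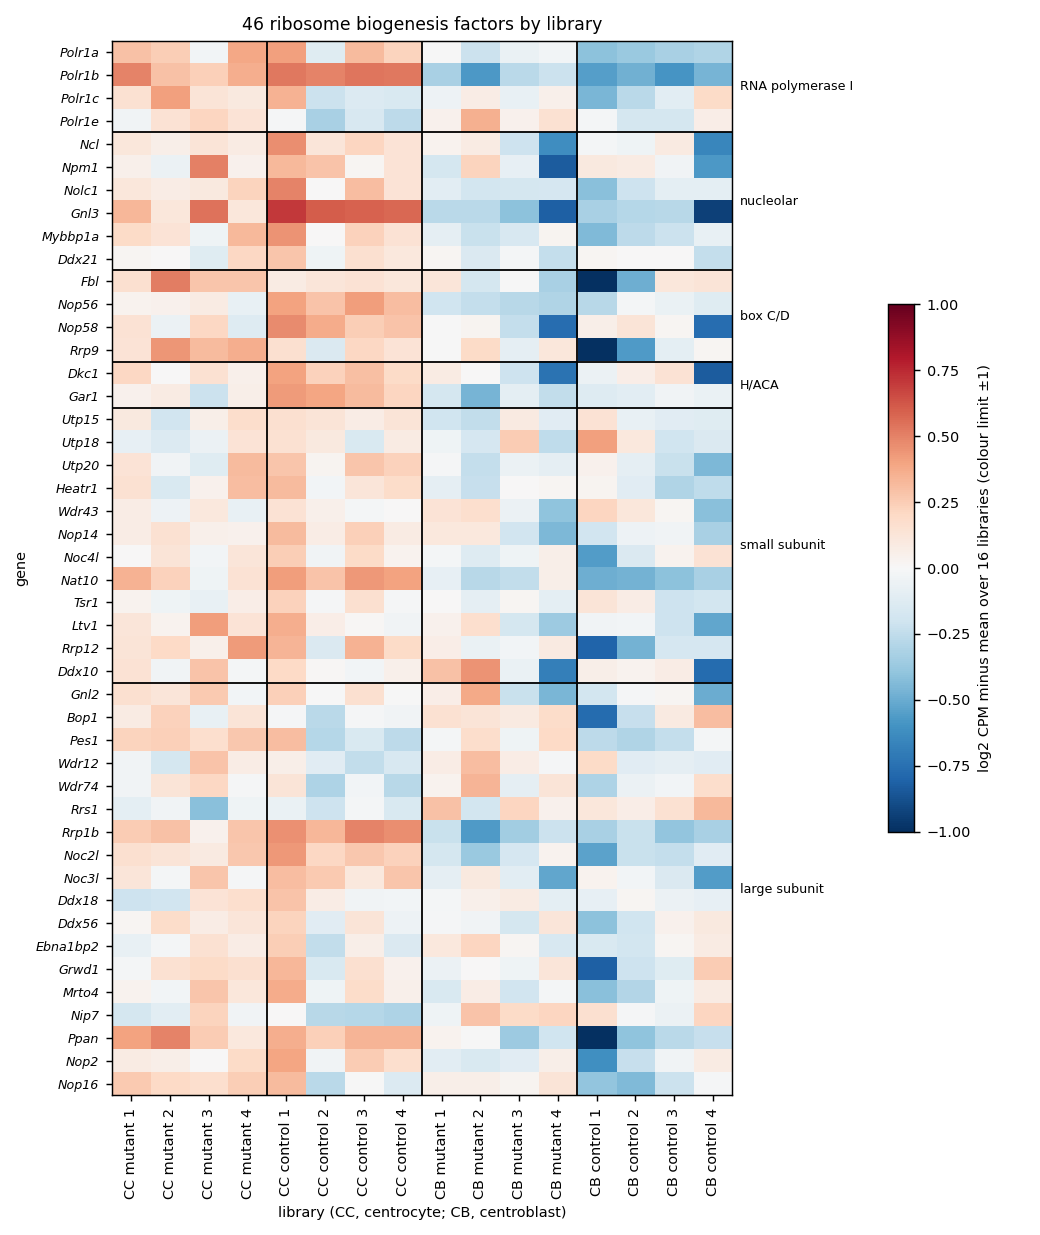
Heat map of the 46 members (rows, grouped by role) in the 16 libraries (columns), as log2 CPM minus the gene's mean over all libraries. Polr1b, Gnl3, Nat10 and Rrp1b are high in the control centrocyte libraries and low in the centroblast libraries, except for Nat10 in mutant centroblast library 4. Control centroblast libraries 1 and 4 are low in different sets of genes.

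The comparison of centrocytes with centroblasts in control mice asked how these factors differ between the light-zone and dark-zone sorts. In the controls, 17 of the 46 members (37.0%) were higher in centrocytes by the edgeR quasi-likelihood test (Benjamini-Hochberg adjusted p under 0.05), against 14.9% of all tested genes. None was called lower, against 12.9% of all genes; 2 were lower and 22 higher at an unadjusted p under 0.05, against 18.4% and 20.3% of all genes. DESeq2 called 18 higher (15.3% of genes with an adjusted p) and 1, Nip7, lower (13.6%). The median log2 fold change was 0.30 over the members and 0.005 over all tested genes. The control centrocyte and centroblast values did not overlap for 17 members on the high side (15.4% of all genes) and for 1 on the low side (12.3% of all genes).

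RNA polymerase I showed the widest spread within a complex. Polr1b (chr2:129100995-129126594, plus strand), the second largest subunit, was at 52.2, 51.0, 52.4 and 52.2 CPM in control centrocytes and at 24.7, 26.0, 24.1 and 26.3 CPM in control centroblasts. The groups lay far apart, with little spread within either (log2 fold change 1.04, SE 0.10, adjusted p = 7.08e-07). Polr1a, the largest, catalytic subunit, was at 128, 88.4, 119.6 and 112 CPM in control centrocytes and at 72.4, 74.5, 76.8 and 78.1 CPM in control centroblasts, again without overlap (log2 fold change 0.57, SE 0.11, adjusted p = 0.00121). Polr1c, a subunit shared with RNA polymerase III, and Polr1e, a subunit specific to polymerase I, were not called, with log2 fold changes of 0.12 (95% interval -0.18 to 0.42) and -0.11 (-0.33 to 0.11). The catalytic-core subunits were thus called higher in control centrocytes, while the intervals of the other listed subunits spanned 0.

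Among the 6 general nucleolar proteins, 3 were called higher in control centrocytes. Gnl3 (chr14:31012433-31019152, minus strand), the nucleolar GTPase nucleostemin, was at 82.7, 76.8, 76.2 and 75.3 CPM in control centrocytes and at 40.4, 41.6, 41.8 and 26.4 CPM in control centroblasts. All 4 centrocyte libraries were above all centroblast libraries, and centroblast library 4 was far below its group (log2 fold change 1.05, SE 0.15, adjusted p = 8.92e-05). Nolc1, a chaperone of snoRNPs, and Mybbp1a, a nucleolar MYB-binding protein, rose less, with log2 fold changes of 0.45 and 0.46 (adjusted p = 0.00375 and 0.00624). Ncl was at 1449, 1141, 1221 and 1152 CPM in control centrocytes and at 1036, 1019, 1114 and 669 CPM in control centroblasts. Its groups did not overlap, but centroblast library 4 was low, and the difference was not called (log2 fold change 0.37, SE 0.16, adjusted p = 0.0924). Npm1 was at 347, 338, 282 and 305 CPM in control centrocytes and at 298, 294, 271 and 187 CPM in control centroblasts, which overlapped (log2 fold change 0.28, SE 0.19, adjusted p = 0.294). The RNA helicase Ddx21 was not called, with a log2 fold change of 0.18 (95% interval -0.034 to 0.39).

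Each class of snoRNP proteins had 1 member called. Nop56 (chr2:130274430-130279313, plus strand), a core protein of box C/D snoRNPs, was at 162, 149.6, 164 and 152 CPM in control centrocytes and at 101, 121, 117 and 113 CPM in control centroblasts (log2 fold change 0.47, SE 0.079, adjusted p = 0.00031). Its partner Nop58 was at 201, 187, 172 and 176 CPM in control centrocytes and at 151, 158, 147 and 85.5 CPM in control centroblasts; the groups did not overlap, library 4 was low, and the difference was not called (log2 fold change 0.44, SE 0.18, adjusted p = 0.0745). Rrp9, which binds the U3 snoRNA that guides the first cuts of the precursor, was at 35.0, 28.4, 36.3 and 34.6 CPM in control centrocytes and at 13.8, 21.2, 29.4 and 31.9 CPM in control centroblasts. Here centroblast libraries 1 and 2 were the low ones, and the difference was not called (log2 fold change 0.48, SE 0.19, adjusted p = 0.0645). Gar1 (chr3:129824912-129831396, minus strand), a core protein of H/ACA snoRNPs, was at 50.5, 49.3, 46.7 and 43.5 CPM in control centrocytes and at 34.2, 34.9, 36.5 and 35.8 CPM in control centroblasts (log2 fold change 0.43, SE 0.10, adjusted p = 0.00452). Dkc1, the pseudouridine synthase, was at 153, 135, 142 and 132 CPM in control centrocytes and at 111, 121, 128 and 64.8 CPM in control centroblasts, and was not called (log2 fold change 0.41, SE 0.18, adjusted p = 0.106).

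Of the 12 small-subunit factors, 5 were called higher in control centrocytes. Nat10 (chr2:103721256-103761270, minus strand), which acetylates 18S ribosomal RNA, was at 82.5, 75.2, 83.5 and 81.7 CPM in control centrocytes and at 44.1, 44.5, 46.5 and 49.4 CPM in control centroblasts, with narrow, well separated groups (log2 fold change 0.81, SE 0.10, adjusted p = 2.25e-05). Rrp12, a pre-40S export factor, was at 51.9, 37.1, 52.1 and 46.9 CPM in control centrocytes and at 23.6, 29.5, 36.5 and 36.5 CPM in control centroblasts (log2 fold change 0.58, SE 0.14, adjusted p = 0.00634). The processome proteins Utp20, Heatr1 and Nop14 rose by 1.24-fold to 1.30-fold, with adjusted p from 0.0233 to 0.0494, and each of these calls was lost when any of several single libraries was left out. Utp15, Utp18 and Wdr43 of the processome, Noc4l, the late cytoplasmic factors Tsr1 and Ltv1 and the helicase Ddx10 were not called, with log2 fold changes from -0.011 (Utp18) to 0.29 (Ltv1).

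Of the 18 large-subunit factors, 5 were called higher in control centrocytes. Ppan, a factor of early 60S maturation, was at 110.5, 101, 108 and 108 CPM in control centrocytes and at 40.1, 64.8, 71.0 and 73.2 CPM in control centroblasts (log2 fold change 0.78, SE 0.15, adjusted p = 0.00114). Rrp1b, a nucleolar protein of early large-subunit particles, was at 54.9, 50.2, 56.3 and 55.0 CPM in control centrocytes and at 31.9, 34.2, 30.3 and 31.8 CPM in control centroblasts (log2 fold change 0.76, SE 0.10, adjusted p = 3.09e-05). Both were separated between the groups, although Ppan was far lower in centroblast library 1 than in the other 3. Noc2l and Noc3l, partners in the NOC complexes that escort pre-60S particles, had log2 fold changes of 0.56 and 0.40 (adjusted p = 0.000848 and 0.0414). Nop2, a 28S ribosomal RNA methyltransferase, was called at 0.38 (adjusted p = 0.0367). The PeBoW complex, formed by Pes1, Bop1 and Wdr12 and needed to cut the precursor of 28S and 5.8S ribosomal RNA, was not called in any subunit, with log2 fold changes of 0.12, 0.018 and -0.087. The other 8 large-subunit factors, Gnl2, Wdr74, Ddx18, Ddx56, Ebna1bp2, Grwd1, Mrto4 and Nop16, were not called, with log2 fold changes from -0.066 (Wdr74) to 0.30 (Mrto4). The lowest log2 fold changes in the list belonged to Nip7, at 99.2, 81.9, 81.4 and 80.2 CPM in control centrocytes and at 111, 98.4, 95.4 and 115 CPM in control centroblasts (log2 fold change -0.29, SE 0.11, adjusted p = 0.0572), and to Rrs1, which helps to load the 5S particle (log2 fold change -0.28, SE 0.12, adjusted p = 0.0895).

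The calls of Polr1a, Polr1b, Nolc1, Gnl3, Mybbp1a, Nop56, Gar1, Nat10, Rrp12, Rrp1b, Noc2l and Ppan in controls held with each of the 16 libraries left out in turn, and those of Utp20, Heatr1, Nop14, Noc3l and Nop2 did not. With the replicate number as a block, the calls of Nolc1 and Mybbp1a were lost (adjusted p = 0.0658 and 0.055). Those of Utp20, Heatr1, Nop14, Noc3l and Nop2 were lost with the block as well. With offsets per library for GC content and transcript length, 26 members were called higher (18.0% of all genes) and 1, Rrs1, lower (21.1%), and the call of Gar1 was lost (adjusted p = 0.0651). With the female libraries alone 9 were called higher (13.0% of all genes).

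In mutant mice the same comparison called 6 of the 46 members (13.0%) higher in centrocytes, against 8.92% of all tested genes, and none lower, against 7.07%. At an unadjusted p under 0.05 no member was lower (13.5% of all genes) and 11 were higher (16.3%). DESeq2 called 7 higher (9.19% of genes with an adjusted p) and 0 lower (7.62%). The median log2 fold change was 0.17 over the members and 0.02 over all tested genes. The mutant groups did not overlap for 10 members on the high side (11.5% of all genes) and for 0 on the low side (10.5% of all genes). All 6 members called in mutants were also called in controls, but the comparison in each genotype has its own libraries and its own error, and the test of the difference is given below.

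Polr1b was at 51.0, 44.3, 42.8 and 46.5 CPM in mutant centrocytes and at 28.9, 24.3, 30.1 and 31.2 CPM in mutant centroblasts (log2 fold change 0.69, SE 0.10, adjusted p = 7.91e-05). Gnl3 was at 63.6, 54.8, 73.5 and 54.6 CPM in mutant centrocytes and at 41.9, 42.0, 38.1 and 28.6 CPM in mutant centroblasts (log2 fold change 0.71, SE 0.15, adjusted p = 0.00365). Rrp1b was at 47.6, 48.9, 41.2 and 48.3 CPM in mutant centrocytes and at 34.1, 27.0, 31.4 and 34.4 CPM in mutant centroblasts (log2 fold change 0.55, SE 0.10, adjusted p = 0.000858). In all 3 genes the mutant centrocyte libraries were above the mutant centroblast libraries, and these 3 calls held with each library left out in turn. Noc2l had a smaller difference (log2 fold change 0.33, SE 0.10, adjusted p = 0.0419), as did Nop56, at 126, 126, 129.8 and 117 CPM in mutant centrocytes and 107, 104, 101 and 99.8 CPM in mutant centroblasts (log2 fold change 0.28, SE 0.079, adjusted p = 0.0232). Nat10 was at 78.7, 72.5, 60.0 and 68.4 CPM in mutant centrocytes and at 58.5, 51.1, 52.0 and 64.5 CPM in mutant centroblasts. These values overlapped, since centrocyte library 3 was below centroblast library 4 (log2 fold change 0.31, SE 0.10, adjusted p = 0.049). The call of Nat10 was lost without any 1 of 12 libraries, that of Noc2l without any 1 of 11 and that of Nop56 without any 1 of 4.

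Ppan and Fbl were the members not called in mutants with the largest differences. Ppan was at 113, 121, 102 and 92.4 CPM in mutant centrocytes and at 87.9, 85.4, 66.5 and 74.7 CPM in mutant centroblasts, without overlap but not called (log2 fold change 0.45, SE 0.15, adjusted p = 0.0531). Fbl was at 10.8, 13.7, 11.7 and 11.7 CPM in mutant centrocytes and at 10.5, 8.55, 9.61 and 7.71 CPM in mutant centroblasts (log2 fold change 0.40, SE 0.20, adjusted p = 0.193). Ncl, Npm1 and Nip7 had log2 fold changes of 0.25, 0.32 and -0.18 and were not called (adjusted p = 0.325, 0.281 and 0.292). For the H/ACA class, Dkc1 and Gar1 were not called either (0.29 and 0.24).

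The main fit treated the mutant centrocyte and centroblast libraries as independent, so the 6 calls and their errors leave out any pairing. The deviations of same-numbered mutant libraries correlated at 0.263 to 0.327 over genes, and they were taken as pairs only in the fit with a replicate block. Such correlations do not show a shared mouse. Only library 1 matched its own number best in both directions, and same-numbered libraries also share a sex. Mutant and control centroblast libraries 4, which come from different mice, correlated at 0.344. With the replicate number as a block, 10 members were called higher in mutants (14.8% of all genes): the 6 above with Polr1a, Nolc1, Ppan and Fbl. With offsets for GC content and transcript length 12 were called higher (12.9% of all genes) and 1, Bop1, lower (14.9%). Without mutant centroblast library 3, mutant centrocyte library 1 or mutant centrocyte library 2, 3 were called higher (6.85%, 6.72% and 7.16% of all genes).

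**Figure D2:**
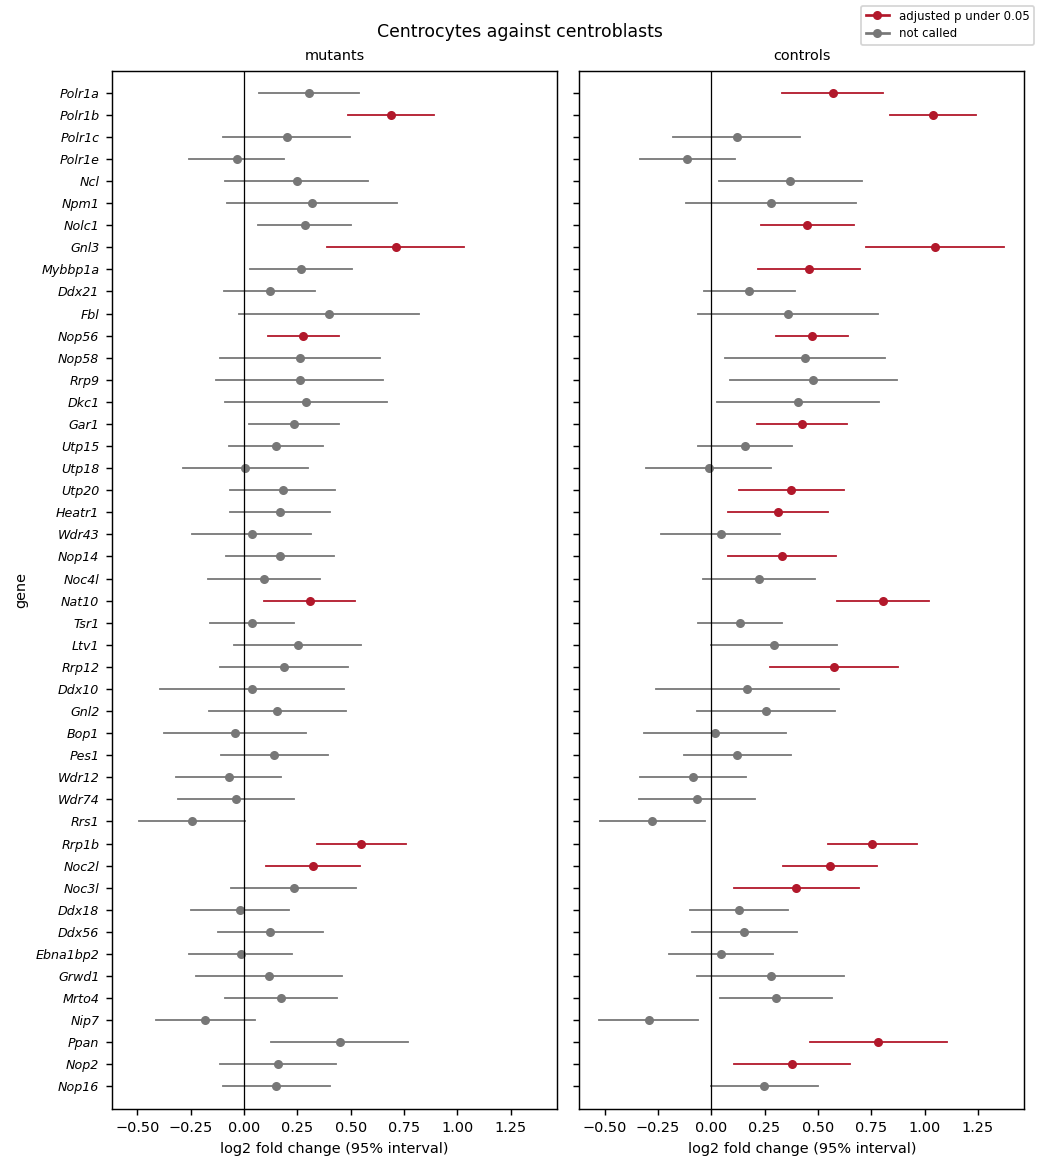
Log2 fold changes of the 46 members between centrocytes and centroblasts, in mutants (left) and in controls (right). The 95% intervals are those of the main edgeR fit, which has no replicate block. Red marks an adjusted p under 0.05, which 6 members reached in mutants and 17 in controls, all on the high side.

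Whether the step between the cell types differed by genotype was tested with the interaction term, the difference in mutants minus the difference in controls. No member was called, and no gene among the 15240 (0% in each direction); at an unadjusted p under 0.05, 2 members were lower and 0 higher, against 1.83% and 0.984% of all genes. DESeq2 called 0 members and 1 gene (0.00304%), which was lower. The 2 members were Nat10 (interaction -0.50, SE 0.14, unadjusted p = 0.00286, adjusted p = 0.999) and Polr1b (-0.35, 95% interval -0.63 to -0.067, unadjusted p = 0.0182, adjusted p = 0.999). The interaction was below 0 for 36 members and above 0 for 10, with a median of -0.13 over the members and 0.01 over all tested genes. Other members with values far from 0 were Rrp12 (-0.39, 95% interval -0.81 to 0.036), Gnl3 (-0.34, -0.79 to 0.11) and Ppan (-0.33, -0.79 to 0.12), whose intervals include 0. A larger number of calls in controls than in mutants is therefore not shown to be a difference between the genotypes.

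**Figure D3:**
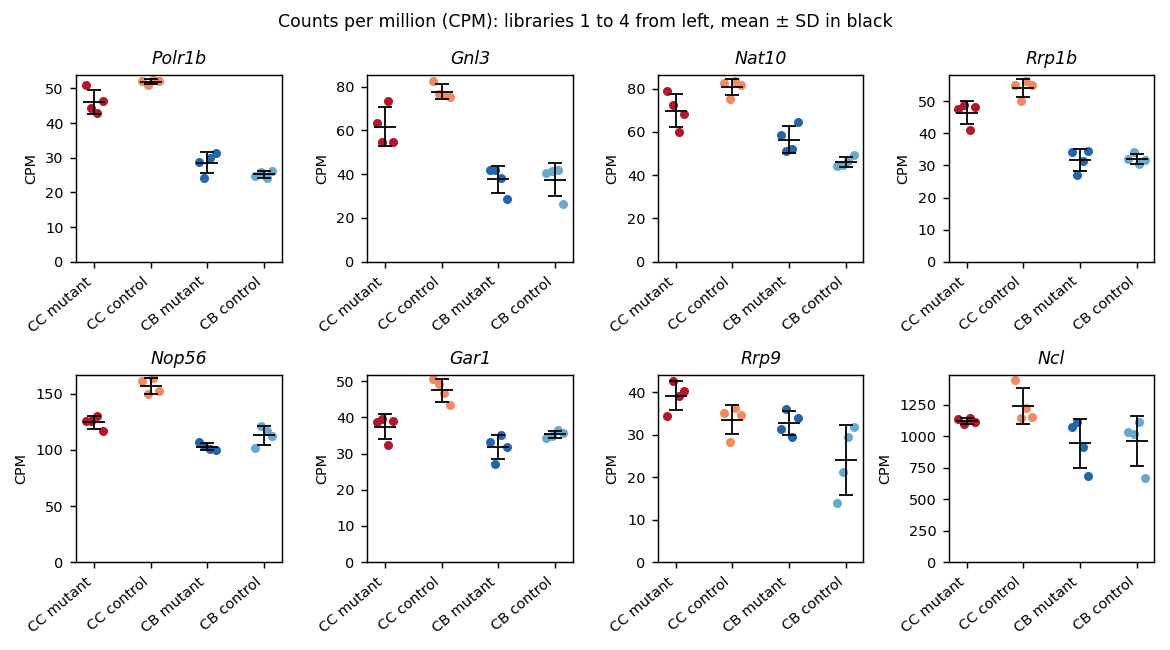
CPM of 8 members in the 4 groups, with libraries 1 to 4 of a group from left to right and the mean ± SD (n = 4) in black. Polr1b, Gnl3 and Rrp1b are higher in centrocytes of both genotypes, and Nop56 and Gar1 are lower in mutant than in control centrocytes. Rrp9 is spread widely in control centroblasts, and Ncl in centroblasts of both genotypes.

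In centrocytes, mutant against control, 2 of the 46 members (4.35%) were called lower, against 9.15% of all tested genes, and none higher, against 7.37%. At an unadjusted p under 0.05, 4 members (8.70%) were lower and 2 (4.35%) higher, against 16.2% and 15.1% of all genes. DESeq2 called 2 lower (9.70% of genes with an adjusted p) and 1, Polr1e, higher (7.73%). The members' shares called were below those of all genes. The median log2 fold change was -0.051 over the members and 0.001 over all tested genes.

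Both called members are snoRNP core proteins. Nop56 averaged 125 ± 5.59 CPM in mutant centrocytes and 157 ± 6.94 CPM in control centrocytes (SD, n = 4 each), and all mutant libraries were below all control libraries (log2 fold change -0.33, SE 0.079, adjusted p = 0.00839). Gar1 averaged 37.4 ± 3.44 CPM in mutant centrocytes and 47.5 ± 3.11 CPM in control centrocytes (SD, n = 4 each), again without overlap (log2 fold change -0.34, SE 0.10, adjusted p = 0.0266). Mutant library 3, at 32.3 CPM, was the lowest for Gar1. The other snoRNP proteins were not called: Nop58 was at 160.5, 139, 167 and 133 CPM in mutant centrocytes and at 201, 187, 172 and 176 CPM in control centrocytes (log2 fold change -0.30, SE 0.18, adjusted p = 0.273), and Dkc1, Fbl and Rrp9 had log2 fold changes of -0.18, 0.20 and 0.22.

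The largest differences that were not called were those of Gnl3 (log2 fold change -0.34, SE 0.15, adjusted p = 0.14), whose mutant and control values did not overlap, and of Polr1e, at 49.1, 55.6, 58.4 and 55.3 CPM in mutant centrocytes and 49.7, 40.2, 45.0 and 42.0 CPM in control centrocytes (log2 fold change 0.30, SE 0.10, adjusted p = 0.0564). Pes1 was at 166, 168, 160.5 and 172 CPM in mutant centrocytes and at 176, 117, 128 and 119 CPM in control centrocytes. Its control library 1 was above all mutant libraries and the other 3 were below them (log2 fold change 0.30, SE 0.12, adjusted p = 0.0904). Nat10 (-0.21, adjusted p = 0.173), Polr1b (-0.17, adjusted p = 0.231) and Rrp1b (-0.22, adjusted p = 0.136) had negative values and were not called. Ncl, Npm1 and Nip7 had log2 fold changes of -0.14, -0.044 and 0.20 (adjusted p = 0.569, 0.902 and 0.237). Counted by non-overlap, 5 members were lower in mutants (12.4% of all genes) and 1 was higher (11.1% of all genes).

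The call of Nop56 held with each of the 16 libraries left out in turn, and that of Gar1 was lost without mutant centrocyte library 3 or control centrocyte library 1, 2 or 3. Without mutant centrocyte libraries 3 and 4 together neither was called (adjusted p = 0.0768 for Nop56 and 0.194 for Gar1), nor without the filter on low counts or within either sex, and with GC and length offsets 5 members were lower (13.2% of all genes) and 2 higher (14.7%). Those 2 mutant libraries had the highest summed level of 18 macrophage markers, 96.1, 58.8, 377 and 382 CPM over mutant centrocytes, against 86.4, 144, 105 and 116 CPM over control centrocytes; all 18 markers had reads, among them Csf1r, at 10.3, 5.77, 44.7 and 47.8 CPM in mutant centrocytes and 11.0, 18.1, 11.8 and 14.5 CPM in control centrocytes. The part of those cells in the member values was not tested beyond leaving the libraries out.

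In centroblasts, mutant against control, no member was called in either direction, against 4.06% of all tested genes higher and 6.40% lower. At an unadjusted p under 0.05, 8 members (17.4%) were higher and 0 lower, against 10.4% and 12.4% of all genes. DESeq2 called 0 members in each direction, against 4.89% of genes with an adjusted p higher and 6.92% lower. The median log2 fold change was 0.086 over the members and 0.008 over all genes, and 34 members had a positive value. Values did not overlap for 4 members on the high side (6.36% of all genes) and for 0 on the low side (8.01% of all genes): Polr1a, Nat10, Rrp12 and Nop16, a pre-60S factor.

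Rrp9 had the largest difference, at 31.4, 35.9, 29.5 and 34.0 CPM in mutant centroblasts and 13.8, 21.2, 29.4 and 31.9 CPM in control centroblasts. The mutant values were close together, and control libraries 1 and 2 were far below control libraries 3 and 4 (log2 fold change 0.44, SE 0.19, adjusted p = 0.158). Rrp12 was at 43.0, 39.2, 40.2 and 43.7 CPM in mutant centroblasts and at 23.6, 29.5, 36.5 and 36.5 CPM in control centroblasts, with control library 1 lowest (log2 fold change 0.40, SE 0.14, adjusted p = 0.09). Ppan was at 87.9, 85.4, 66.5 and 74.7 CPM in mutant centroblasts and at 40.1, 64.8, 71.0 and 73.2 CPM in control centroblasts (log2 fold change 0.34, SE 0.15, adjusted p = 0.192). For all 3 genes, control centroblast library 1 was the lowest of the 16 libraries.

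Nat10 was at 58.5, 51.1, 52.0 and 64.5 CPM in mutant centroblasts and at 44.1, 44.5, 46.5 and 49.4 CPM in control centroblasts, without overlap and with little spread among controls (log2 fold change 0.29, SE 0.10, adjusted p = 0.0823). Polr1a was at 95.9, 83.0, 92.0 and 94.7 CPM in mutant centroblasts, against 72.4, 74.5, 76.8 and 78.1 CPM in control centroblasts (log2 fold change 0.28, SE 0.11, adjusted p = 0.137). Of the snoRNP proteins that were lower in mutant centrocytes, Nop56 had a log2 fold change of -0.14 in centroblasts (adjusted p = 0.334) and Gar1 of -0.15 (adjusted p = 0.406). Mybbp1a (0.14), Ncl (-0.021), Npm1 (-0.085) and Nip7 (0.086) had small values, with adjusted p from 0.528 to 0.956.

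With offsets for GC content and transcript length, 0 members were called lower in mutant centroblasts (9.82% of all genes) and 8 higher (9.57%): Nat10, Polr1b, Polr1a, Rrp9, Utp20, Pes1, Nop16 and Rrp12. Without control centroblast library 4, 3 members were called higher, against 5.47% of all genes (Rrp9, Nop16 and Rrp12), and with the male libraries alone 4 were called higher, against 6.80% of all genes (Ppan, Rrp9, Bop1 and Rrp12). These 4 are rich in GC (55.8% to 59.8%). The male control centroblast libraries, 1 and 2, had the lowest correlations of gene levels with GC content (-0.653 and -0.387, described below). Sex and GC content therefore cannot be told apart in the male fit.

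**Figure D4:**
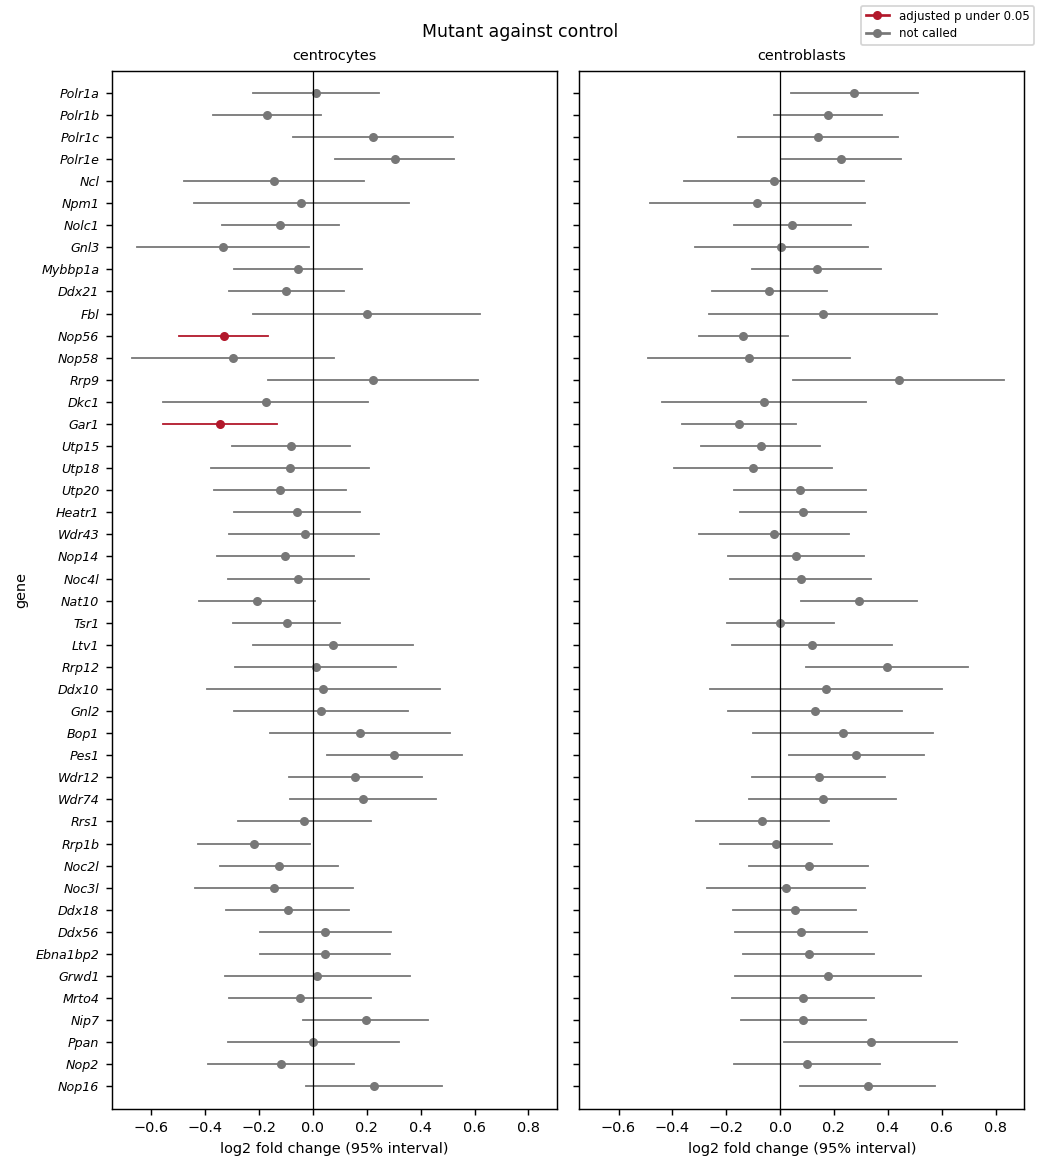
Log2 fold changes of the 46 members in mutants against controls, in centrocytes (left) and in centroblasts (right), with 95% intervals of the edgeR fit. Nop56 and Gar1 in centrocytes are the 2 values with an adjusted p under 0.05.

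Member values in single libraries moved with the GC content of the transcripts. The correlation over 14736 genes between a gene's GC content and its deviation from the mean of the 16 libraries was -0.653 in control centroblast library 1 and 0.404 in control centroblast library 4 (Spearman, across genes, which are not independent replicates); over the other 14 libraries it lay from -0.387 to 0.396. The 46 members were split at their median GC content, 50.6%. In control centroblast library 1 the 23 members of higher GC content had a median log2 deviation of -0.45 and the 23 of lower GC content one of 0.028, while in control centroblast library 4 the medians were 0.021 and -0.32. Mutant centroblast library 4 resembled that library, with medians of 0.054 and -0.30. Rrp9, Ppan, Grwd1, a chaperone of ribosomal protein L3, and Bop1, all rich in GC, were lowest in control centroblast library 1, and Ncl, Nop58, Dkc1 and Ddx10, poor in GC, were lowest in control centroblast library 4. For control centrocytes against control centroblasts the median log2 fold change was 0.38 in the GC-rich members, with 11 called, and 0.26 in the GC-poor members, with 6 called. Gene levels moved with transcript length too. The same correlation with length was 0.097, 0.227, 0.23 and 0.282 in control centrocytes and 0.168, 0.151, 0.01 and -0.221 in control centroblasts. It was 0.038, -0.076, -0.264 and 0.096 in mutant centrocytes and -0.017, -0.35, -0.052 and -0.202 in mutant centroblasts. Transcript length was thus not balanced between the compared groups. What made GC content or length and these values move together was not tested.

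**Figure D5:**
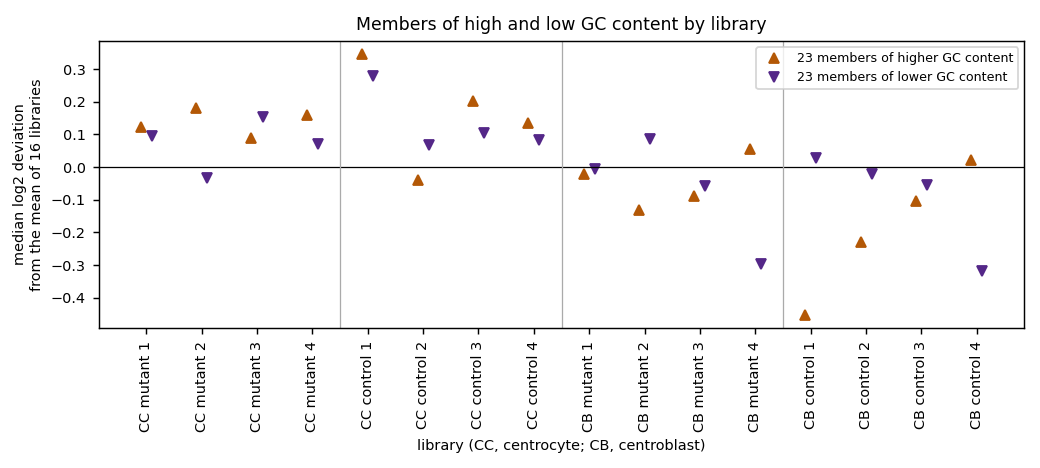
Median log2 deviation from the mean of the 16 libraries for the 23 members of higher GC content (triangles up) and the 23 of lower GC content (triangles down), by library. The gap is widest in control centroblast library 1, where the GC-rich members are at -0.45, and is reversed in centroblast library 4 of both genotypes.

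Another 140 ribosome biogenesis genes, listed here by role and not part of the 46, were all tested. In control centrocytes against control centroblasts 13 of them (9.29%) were higher and 11 (7.86%) lower, against 14.9% and 12.9% of all genes, and their median log2 fold change was -0.019. Mdn1, the giant ATPase that strips assembly factors from pre-60S particles, was at 205, 182, 235 and 232 CPM in control centrocytes and at 88.9, 97.1, 79.8 and 64.8 CPM in control centroblasts (log2 fold change 1.37, SE 0.12, adjusted p = 6.4e-07). A pair of proteins of the ribonucleases P and MRP also rose, Rpp40 (1.01) and Rpp38 (0.84). On the low side, Polr1d, a subunit shared by RNA polymerases I and III, was at 145, 107, 102 and 102 CPM in control centrocytes and at 204, 173, 184 and 235 CPM in control centroblasts (log2 fold change -0.80, SE 0.16, adjusted p = 0.00135), so polymerase I subunits were called in both directions. Polr2l, a subunit common to the nuclear RNA polymerases (-0.54), and the small-subunit factor Ngdn (-0.49) also fell.

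In mutants, 2 of the 140 (1.43%) were higher in centrocytes, against 8.92% of all genes, and 3 (2.14%) were lower, against 7.07%. The higher ones were Mdn1 (1.00, adjusted p = 2.51e-05) and Rpp38 (0.56, adjusted p = 0.0244). The lower ones were the helicases Ddx24 (-0.36) and Ddx47 (-0.31) and the small-subunit factor Nop9 (-0.31). Mutant centrocytes differed from control centrocytes in 2 of the 140 (1.43%), both higher, against 7.37% of all genes higher and 9.15% lower. These were Imp3, a U3 snoRNP protein (0.41, adjusted p = 0.031), and Polr2h, a subunit common to the nuclear RNA polymerases (0.38, adjusted p = 0.0474). By genotype in centroblasts edgeR called 0 of the 140 in each direction, against 4.06% of all genes higher and 6.40% lower. DESeq2 called 2 higher and 0 lower, against 4.89% and 6.92% of genes with an adjusted p. At an unadjusted p under 0.05 by edgeR, 9 were higher and 0 lower, against 10.4% and 12.4% of all genes. By the interaction, edgeR and DESeq2 called 0 of the 140, and edgeR called 0% of all genes. At an unadjusted p under 0.05, edgeR had 0 higher and 2 lower, against 0.984% and 1.83% of all genes.

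Myc was at 70.1, 74.0, 44.7 and 57.6 CPM in mutant centrocytes and at 35.5, 23.8, 31.5 and 25.6 CPM in mutant centroblasts (log2 fold change 1.08, SE 0.20, adjusted p = 0.00104). In controls it was at 66.5, 57.3, 74.7 and 75.3 CPM in centrocytes and at 15.5, 25.1, 26.9 and 31.2 CPM in centroblasts (log2 fold change 1.47, SE 0.20, adjusted p = 4.56e-05). It was not called by genotype in centrocytes (-0.15, adjusted p = 0.632) or in centroblasts (0.24, adjusted p = 0.525). Its lowest value was in control centroblast library 1. Mycn was at or near 0 in every library, and Max, the partner of MYC, and Ubtf and Rrn3, initiation factors of RNA polymerase I, were not called in any comparison.

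Summed levels of several marker lists differed between the cell types. The 8 markers of germinal centre B cells summed to 2172 to 2313 CPM in mutant centrocytes and 2583 to 2992 CPM in mutant centroblasts. In controls they summed to 2306 to 2910 CPM in centrocytes and 2892 to 3960 CPM in centroblasts, which overlapped. All 10 markers of naive B cells had reads, and their summed level was 2087 to 2452 CPM in mutant centrocytes and 1049 to 1189 CPM in mutant centroblasts, and 1846 to 2268 CPM in control centrocytes and 716 to 1008 CPM in control centroblasts. The 9 plasma cell markers summed to 994 to 1312 CPM in mutant centrocytes and 1613 to 2238 CPM in mutant centroblasts, and to 1040 to 1280 CPM in control centrocytes and 1585 to 1905 CPM in control centroblasts, mostly from Jchain. This sum therefore says little about the other plasma cell markers. The FAS+ CD38- gate is set to leave out naive B cells, which are FAS- CD38+; the part of such cells in the member values was not tested. The 10 T cell markers summed to 292 to 329 CPM in mutant centrocytes and 169.9 to 199.6 CPM in mutant centroblasts, and to 214 to 314 CPM in control centrocytes and 109.9 to 173 CPM in control centroblasts, nearly all from the kinase gene Lck. The other 9 summed to 2.68 to 5.11 CPM in mutant centrocytes and 1.29 to 2.65 CPM in mutant centroblasts, and to 3.24 to 4.91 CPM in control centrocytes and 1.73 to 3.48 CPM in control centroblasts. Among them Cd3e stayed at or below 0.364 CPM in every library, and the 8 neutrophil markers together at or below 3.69 CPM.

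RefSeq promoter windows, from 250 bases before to 50 after the annotated start (GRCm38.p6), were at hand for 40 of the 46 members. They were searched on both strands for CACGTG, the E-box bound by MYC and MAX, for CGGAAG, the core of ETS factor sites, for GGGCGG, the GC box, and for TATAAA, the TATA box. The E-box was in 9 of 40 member windows (22.5%), in 18.1% of 116 windows of the other ribosome biogenesis genes, in 10.2% of 9623 windows of tested genes and in 7.73% of 18992 windows in all. The ETS core was in 57.5% of member windows and 33.1% of those of tested genes, the GC box in 75.0% and 63.9%, and the TATA box in 7.50% and 6.82%. Within the list, the E-box was in 3 of 16 windows (18.8%) of members called higher in control centrocytes and in 6 of 24 (25.0%) of members that were not called, and the ETS core in 62.5% and 54.2%. A match describes the letters in the window and is not evidence of binding.

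Windows of 6 members are shown, because Polr1b and Nat10 had large differences between the cell types, Nop56 and Gar1 were lower in mutant centrocytes, and Nop2 and Mybbp1a, both called in control centrocytes, hold an E-box. Each runs 5′ to 3′ on the gene's strand, and capitals mark the E-box, ETS core and GC box matches on either strand.
Polr1b (chr2:129100746-129101045, plus strand): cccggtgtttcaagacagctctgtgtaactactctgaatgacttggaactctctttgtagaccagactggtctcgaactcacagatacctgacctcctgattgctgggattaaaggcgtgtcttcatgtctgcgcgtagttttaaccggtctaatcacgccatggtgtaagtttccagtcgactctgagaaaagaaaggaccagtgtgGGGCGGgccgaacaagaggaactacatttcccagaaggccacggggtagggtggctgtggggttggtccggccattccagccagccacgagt
Nat10 (chr2:103761221-103761520, minus strand): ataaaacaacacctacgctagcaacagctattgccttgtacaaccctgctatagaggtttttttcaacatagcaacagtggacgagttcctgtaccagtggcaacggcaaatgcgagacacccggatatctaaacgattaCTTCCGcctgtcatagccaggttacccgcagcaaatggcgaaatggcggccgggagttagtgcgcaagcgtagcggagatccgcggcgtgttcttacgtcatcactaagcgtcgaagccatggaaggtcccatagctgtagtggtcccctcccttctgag
Nop56 (chr2:130274162-130274461, plus strand): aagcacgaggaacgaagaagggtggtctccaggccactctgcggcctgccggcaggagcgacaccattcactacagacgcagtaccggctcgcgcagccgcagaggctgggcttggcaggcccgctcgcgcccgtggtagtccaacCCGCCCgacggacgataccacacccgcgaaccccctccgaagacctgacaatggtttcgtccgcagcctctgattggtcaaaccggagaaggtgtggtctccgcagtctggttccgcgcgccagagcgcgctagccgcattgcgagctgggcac
Gar1 (chr3:129831347-129831646, minus strand): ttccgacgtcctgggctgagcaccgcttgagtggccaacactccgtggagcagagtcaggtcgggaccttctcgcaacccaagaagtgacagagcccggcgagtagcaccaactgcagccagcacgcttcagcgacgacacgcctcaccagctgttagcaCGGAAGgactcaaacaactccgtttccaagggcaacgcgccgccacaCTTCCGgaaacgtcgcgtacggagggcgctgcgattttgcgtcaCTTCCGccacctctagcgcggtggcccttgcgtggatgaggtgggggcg
Nop2 (chr6:125131633-125131932, plus strand): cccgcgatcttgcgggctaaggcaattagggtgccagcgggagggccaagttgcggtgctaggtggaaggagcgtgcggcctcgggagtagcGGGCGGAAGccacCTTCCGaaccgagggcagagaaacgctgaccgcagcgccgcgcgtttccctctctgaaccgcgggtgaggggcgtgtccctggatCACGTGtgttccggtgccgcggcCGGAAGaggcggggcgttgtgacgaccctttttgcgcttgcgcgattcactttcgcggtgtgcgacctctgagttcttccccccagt
Mybbp1a (chr11:72441077-72441376, plus strand): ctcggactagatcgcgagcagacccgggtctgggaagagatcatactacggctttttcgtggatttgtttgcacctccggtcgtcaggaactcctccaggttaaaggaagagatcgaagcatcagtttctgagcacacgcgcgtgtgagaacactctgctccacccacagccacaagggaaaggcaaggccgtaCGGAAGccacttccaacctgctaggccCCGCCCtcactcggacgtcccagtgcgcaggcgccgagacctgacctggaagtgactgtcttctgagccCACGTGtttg

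The windows differ in what they hold. Polr1b and Nop56 each have 1 GC box match and no E-box or ETS core, Nat10 has 1 ETS core match, and Gar1 has 3 ETS core matches and no GC box. In Nop2 the E-box starts 60 bases before the annotated start, and a GC box and an ETS core overlap by 3 letters further upstream. In Mybbp1a the E-box lies after the annotated start, at position 41.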

How the data were processed

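RNA of sorted cells was made into Illumina TruSeq libraries, per the labels' protocols. Per the submitters' processing notes, the tools were Trim Galore and cutadapt for trimming, STAR 2.5.3a for alignment to mm10 and, for counting, featureCounts of Subread 1.4.5-p1. The counting options, strand included, and the annotation are not given in the sources used here. The deposited table holds whole-number counts of reads per gene symbol, not normalized by the authors. Of its 49584 entries, 92 are ERCC spike-ins with 3 reads in all, which were left out. No molecular identifiers are named in the labels, so reads may include PCR copies and counting error understates the true error. The labels call the samples biological replicates; naive B cells, which the design text also names, were not used here.

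Counts were fitted with edgeR 4.0.16 and limma 3.58.1 under R 4.3.3: genes kept by filterByExpr by group, TMM factors, 1 mean per group over 16 libraries (12 residual degrees of freedom) and quasi-likelihood tests, 2-sided, with Benjamini-Hochberg adjustment over 15240 genes and a threshold of 0.05. Alternatives, with DESeq2 1.42.0 among them, are given in the closing section. Replicates differed by more than sampling noise in every pair. The members, roles and gene lists were chosen with earlier results of these data known. Members with full statistics follow a rule by size of change, level and role; a few others were named after their values were seen. GENCODE M21 (GRCm38, the same assembly as mm10) gave coordinates, transcript lengths and GC content by symbol, with the principal transcript by APPRIS, and promoter sequences from RefSeq, GRCm38.p6. The main fit treated all libraries as independent, and pairing entered only in the alternative with a replicate block, run for every comparison. Only same-numbered mutant libraries of the 2 cell types met the rule for pairs, all 4 correlations over 0.1. That rule rests on these same data and does not show that they share a mouse.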

Additional observations from a re-analysis of the deposited data

Results flagged for a closer look

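In 13 of 188 sets of 4 libraries (46 members and their sum, each in 4 groups), the highest or lowest library stood off from the other 3 by Dixon's criterion at 95% (its gap to the next library against the range of the 4); chance alone flags about 1 in 20 such sets. Control centroblast library 4 was low in Gnl3 (26.4 CPM, against 40.4 to 41.8 in the other 3), Ddx21 (244 CPM, against 288 to 292), Nop58 (85.5 CPM, against 147 to 158) and Ddx10 (30.0 CPM, against 52.4 to 53.8). Control centroblast library 1 was high in Utp15 (50.1 CPM, against 41.7 to 43.0) and Wdr12 (46.3 CPM, against 37.6 to 38.2). Mutant centrocyte library 3 was high in Npm1 (394 CPM, against 267 to 288) and low in Gar1 (32.3 CPM, against 38.6 to 39.6), Rrs1 (34.5 CPM, against 43.2 to 44.9) and Rrp1b (41.2 CPM, against 47.6 to 48.9). Control centrocyte library 1 was high in Polr1c (89.3 CPM, against 60.5 to 63.6) and Nip7 (99.2 CPM, against 80.2 to 81.9), and control centrocyte library 2 was low in Bop1 (94.3 CPM, against 111 to 113). Mutant centrocyte library 3 is also 1 of the 2 libraries with the most macrophage marker reads. By an interaction with sex (edgeR, adjusted p under 0.05), no member was called in any of the 4 comparisons. Of 15240 genes, 41 were called by genotype in centroblasts, 7 by genotype in centrocytes and 0 by cell type in either genotype. The largest member values, males minus females, were those of Fbl (0.998, adjusted p = 0.117) and Rrp9 (0.893, adjusted p = 0.118) by genotype in centroblasts. Both genes are rich in GC, and the male control centroblast libraries had the lowest correlations of gene levels with GC content. Sex and GC content therefore cannot be told apart in these values. With 2 libraries per sex in a group, the lack of calls does not show that the sexes are alike.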

How the results depend on the processing

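The 10 counts of members called (5 comparisons, 2 directions) were recomputed under each alternative. A change of over 1.5 times is given here, and the cause of each was not tested. The share of all genes called moved with the setting too, so a changed count alone is not a result about the members. In mutant centrocytes against mutant centroblasts, 8.92% of all genes were higher in the main fit, 14.8% with a replicate block and 12.9% with GC and length offsets. In mutant against control centroblasts, 4.06% were higher in the main fit and 9.57% with the offsets. In control centrocytes against control centroblasts the 17 higher calls became 10 with a replicate block (the calls of Nolc1, Mybbp1a, Utp20, Heatr1, Nop14, Noc3l and Nop2 were lost), 26 with GC and length offsets (26 also with the compared groups alone), and 9 with females alone; the 0 lower calls became 1 with DESeq2, with GC and length offsets (with and without block, and with the compared groups alone) and without mutant centrocyte libraries 3 and 4, and 0 to 1 with 1 library left out. In mutants the 6 higher calls became 10 with a replicate block, 12 with the offsets, 16 with offsets and block, 15 with offsets in the compared groups alone, 2 with males alone, 2 with females alone, 3 at an adjusted p under 0.01 and 3 to 8 with 1 library left out; the 0 lower calls became 1 under all 3 fits with offsets. In mutant against control centroblasts the 0 higher calls became 8 with the offsets, 6 with offsets and block, 8 with offsets in the compared groups alone, 4 with males alone and 0 to 3 with 1 library left out. In mutant against control centrocytes the 2 lower calls became 0 without the low-count filter, with a replicate block, without mutant centrocyte libraries 3 and 4, with males alone and with females alone, 4 with the compared groups alone, 5 with the offsets, 4 with offsets and block, 4 with offsets in the compared groups alone, 1 at an adjusted p under 0.01 and 1 to 2 with 1 library left out; the 0 higher calls became 1 with DESeq2, 2 with the offsets, 3 with offsets and block, 3 with offsets in the compared groups alone and 0 to 3 with 1 library left out. Males alone, females alone and offsets in the compared groups alone were chosen after seeing the data. The interaction stayed at 0 in both directions under every alternative run.

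The main fit took no libraries as pairs. Except for mutant centrocytes against mutant centroblasts, same-numbered libraries did not meet the rule for pairs either. Their correlations were -0.0059 to 0.452 between the control cell types, -0.0278 to 0.344 between genotypes in centroblasts and -0.0886 to 0.123 in centrocytes. The sign of uncalled log2 values reversed for a few genes. For Ncl in centroblasts by genotype, it was 0.16 with the offsets, with offsets and block (0.16) and with offsets in the compared groups alone (0.16), 0.079 with males alone and -0.17 to 0.093 with 1 library left out; in centrocytes it was 0.066, 0.086 and 0.068 under the same 3 fits. The Ncl interaction was 0.070 with females alone and -0.24 to 0.021 with 1 library left out. For Npm1 by genotype, 1 library left out gave -0.25 to 0.068 in centroblasts and -0.19 to 0.014 in centrocytes, where females alone gave 0.20; in mutants the step between cell types was -0.043 with males alone. The Npm1 interaction was -0.016 with the offsets, -0.0069 with offsets and block, -0.096 without mutant centrocyte libraries 3 and 4, -0.25 with males alone and -0.12 to 0.20 with 1 library left out. Nip7 by genotype in centrocytes was -0.020 and its interaction -0.061 with males alone; with females alone Ppan by genotype in centroblasts was -0.021 and the Rrp9 interaction 0.096. Of 1480 alternatives over 50 gene results, 1329 kept direction and side of the threshold, 56 lost and 66 gained the call. Differences below the spread between libraries could not be resolved at 4 libraries a group.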
